A study of Drosophila melanogaster with 2 samples.

Results

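Of the 4809 peaks of the thresholded, or optimal, peak list for the transcription factor Glass, 930 (19.3%) had their summit in an intron, 1 to 5 kb from a transcription start site (TSS). These intronic peaks are called members. A peak was a member when its summit lay inside the span of a protein-coding gene, in no exon of such a gene, and more than 1 kb but at most 5 kb from the nearest protein-coding TSS. Only positions were used for this choice, and no signal value beyond presence in the list. The members are compared mainly with the 791 intronic peaks whose nearest TSS was more than 5 kb away, called deep intronic peaks. Another 2238 peaks lay within 1 kb of a TSS, whether in exons or not. Farther than 1 kb from any protein-coding TSS, 772 lay outside genes and 78 in exons.

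The data come from chromatin immunoprecipitation with sequencing (ChIP-seq) in whole Drosophila melanogaster pupae. The single group was a transgenic line that stably expressed gl, the gene for Glass, with GFP fused at the C terminus, in pupae of 24 hour and of mixed sex. It had 2 biological replicates, whose chromatin was sonicated to between 200 and 800 bp, and no second genotype, age or treatment. Their description mentions an input control, but the antibody and assay labels name ChIP against gl, so both were treated as ChIP samples.

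Glass is a zinc finger transcription factor that photoreceptor precursors of the fly eye need to become photoreceptors. Introns near a promoter often hold enhancers, the short stretches where transcription factors bind and from which they act on a start site some distance away. In a whole pupa the cells known to express Glass are a small share of all cells, and a peak list from whole animals cannot tell in which cells a site was occupied.

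Peak strength is the authors' deposited signal value, which ranks peaks within a list, and its scale was not given in the sources used here. The members had a median signal value of 206.7, quartiles of 157.4 and 311.0, and a range from 127.2 to 2151. All peaks of the thresholded list shared the highest −log10 q value of 4.10, so that value did not separate them. Read depth is unknown, because no read counts were given.

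The sequence at the strongest member is shown first. It lay in intron 2 of CG11050, a gene known by its number, and ranked 10 of 4809 with a signal value of 2151. That intron is 140 bp long in the canonical transcript, so the peak of 412 bp reached into exons on both sides. Each line below gives the host gene, the position on dm6 and the 101 bp around the summit, from the NCBI RefSeq copy of the assembly.
CG11050, chr2L:6612657-6612757, + strand: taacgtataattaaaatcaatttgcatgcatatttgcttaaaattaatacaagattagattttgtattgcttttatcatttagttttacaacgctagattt
Of these bases 21.8% are G or C, against a median of 36.6% over all members.

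A pair of 6-mers was called at the summits, AACAAA and AGTGCA, and the strongest members that hold each are shown for that reason. The capitals mark the 6-mer or its reverse complement. For AACAAA the 3 strongest are in jumu, which encodes a forkhead transcription factor, and in CG32772 and CG11357.
jumu, chr3R:10352001-10352101, + strand: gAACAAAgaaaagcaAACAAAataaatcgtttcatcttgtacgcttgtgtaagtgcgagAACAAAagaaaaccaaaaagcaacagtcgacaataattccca
CG32772, chrX:4910500-4910600, + strand: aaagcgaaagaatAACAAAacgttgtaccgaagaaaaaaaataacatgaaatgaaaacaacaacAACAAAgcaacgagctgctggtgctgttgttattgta
CG11357, chr3L:4543180-4543280, + strand: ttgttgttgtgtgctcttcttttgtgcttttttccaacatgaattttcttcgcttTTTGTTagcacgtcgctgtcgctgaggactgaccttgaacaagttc
For AGTGCA the strongest printed here are in CG6330, in crol, which encodes an ecdysone-regulated zinc finger protein, and in Kdm2, which encodes a histone demethylase.
CG6330, chr3R:26954226-26954326, + strand: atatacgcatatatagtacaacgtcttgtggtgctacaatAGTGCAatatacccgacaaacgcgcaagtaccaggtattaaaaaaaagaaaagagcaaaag
crol, chr2L:11806839-11806939, + strand: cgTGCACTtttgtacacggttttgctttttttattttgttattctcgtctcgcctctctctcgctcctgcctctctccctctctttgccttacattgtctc
Kdm2, chr3R:9056553-9056653, + strand: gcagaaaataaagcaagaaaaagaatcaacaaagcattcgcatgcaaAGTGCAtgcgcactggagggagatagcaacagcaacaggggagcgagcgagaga
In jumu, AACAAA or its complement occurs at several places in the window, and in crol AGTGCA lies near its left end.

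The 8-mer CAAAGTCC was known from earlier results of these data, so it is described here with no test. It is shown because it was found at 21 member summits but at 1 window 500 bp to the right and 1 window 500 bp to the left. The 8 letters match the core of the element known for HNF4 nuclear receptors, which regulate lipid and energy metabolism. A match is a description of letters and does not show which protein was bound. The capitals mark the 8-mer or its reverse complement in 5 members that hold it, named after their values were seen. They are not the 5 strongest: the carriers in whd (484.2) and zip (306.3) were stronger than some of them and are not printed.
ScsbetaA, chr3R:8939862-8939962, + strand: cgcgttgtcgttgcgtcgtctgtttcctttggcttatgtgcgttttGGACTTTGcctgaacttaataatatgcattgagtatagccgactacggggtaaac
CG32795 and kirre, chrX:2786714-2786814, + strand: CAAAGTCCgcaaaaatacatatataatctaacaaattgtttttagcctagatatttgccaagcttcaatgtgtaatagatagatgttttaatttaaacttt
Wwox, chr2L:8002353-8002453, + strand: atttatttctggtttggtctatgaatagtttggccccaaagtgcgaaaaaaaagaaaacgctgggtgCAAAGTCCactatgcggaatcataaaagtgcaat
GstT4, chrX:13406442-13406542, + strand: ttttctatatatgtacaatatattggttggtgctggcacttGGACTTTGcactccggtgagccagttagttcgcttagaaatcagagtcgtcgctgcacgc
pelo, chr2L:9707223-9707323, + strand: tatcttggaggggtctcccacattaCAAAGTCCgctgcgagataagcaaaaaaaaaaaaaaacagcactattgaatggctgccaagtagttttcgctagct
ScsbetaA encodes a subunit of succinyl-CoA synthetase, kirre a cell adhesion protein, Wwox an oxidoreductase, GstT4 a glutathione transferase and pelo a ribosome rescue factor. The 8-mer lies in the middle of some windows and, in kirre, at the very edge.

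Members were densest close to a TSS. Over the intron sequence that the rule allows, 18.4 Mb over all 5 large arms and chromosome 4, there were 50.4 member summits per Mb. The 4809 strongest entries of replicate 1 gave 50.9 per Mb and those of replicate 2 gave 48.5, a mean of 49.7 ± 1.69 (SD, n = 2). Deep introns, 30.2 Mb, held 26.2 summits per Mb, with 27.7 in replicate 1, 24.4 in replicate 2 and a mean of 26.05 ± 2.32 (SD, n = 2). Each replicate had the higher density in the member territory, and the values of the 2 territories did not overlap. The density ratio of members to deep introns was 1.92 (95% exact interval 1.75 to 2.12, two-sided exact binomial test p = 9.58e-42). Peaks of a list are not independent replicates, and this p-value describes the list and not the spread between animals. For all densities per Mb, every base was counted as territory, with no masking of repeats. Annotated transposable elements held 1 member summit and 0 deep intronic ones. The part of such sequence in the densities was not tested.

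The fall with distance had no step at the 5 kb bound. Between 1 and 1.5 kb from a TSS there were 59.1 summits per Mb (202 summits), with 58.5 in replicate 1 and 57.4 in replicate 2. Between 1.5 and 2 kb there were 61.9, with 57.1 and 63.6 in the replicates. The bin from 2 to 2.5 kb had 53.5 and the bin from 2.5 to 3 kb had 45.8. From 4 to 4.5 kb there were 44.0 per Mb, with 49.2 in replicate 1 and 35.8 in replicate 2, and from 4.5 to 5 kb there were 37.6. Just beyond the bound, from 5 to 7.5 kb, deep introns held 43.4 per Mb (272 summits), a density within the range of the member bins from 3 to 5 kb. From 7.5 to 10 kb it was 31.0, from 10 to 20 kb 30.4, and beyond 20 kb 10.5 per Mb, with 11.9 in replicate 1 and 9.41 in replicate 2. The median signal value of the member bins ran from 177.3 at 3.5 to 4 kb to 216.3 at 2.5 to 3 kb, and was 202.8 in both the first and the last of them.

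**Figure D1:**
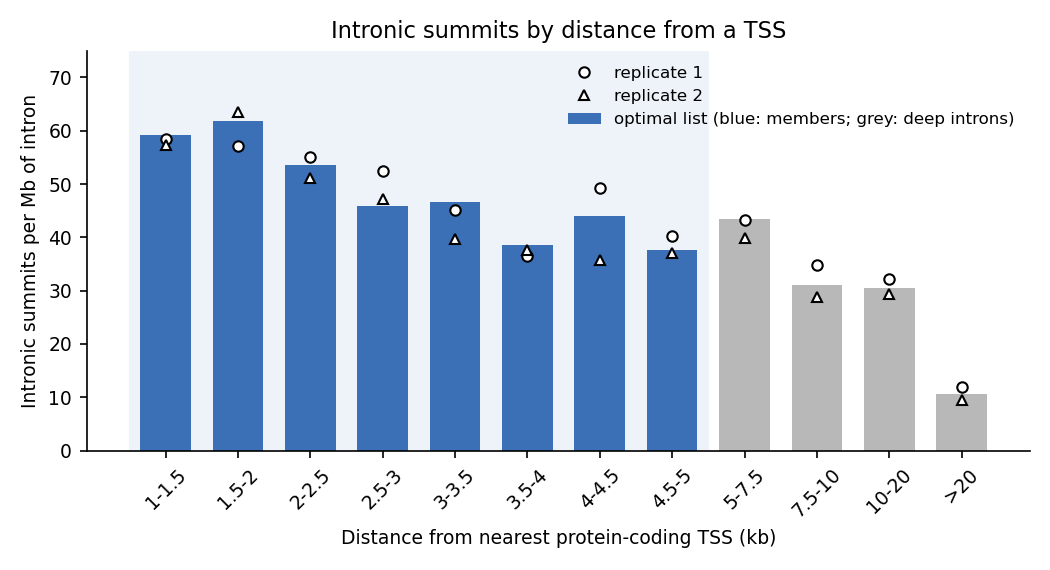
Intronic summits per Mb of intron (y axis) against distance from the nearest protein-coding TSS in kb (x axis); bars are the thresholded list, blue for members and grey for deep introns, circles are replicate 1 and triangles replicate 2. Density falls from 59.1 and 61.9 per Mb in the first bins to 37.6 at 4.5 to 5 kb, is 43.4 at 5 to 7.5 kb, and is 10.5 beyond 20 kb.

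The members nearest to the bounds show how narrow the choice is there. At the lower bound the innermost member, in CG10936, lay 1003 bp from a TSS with a signal value of 146.6. The nearest intronic peak left out, in Diap1, an inhibitor of cell death, lay at 1000 bp with 158.3. At the upper bound the last member, in Pdk, which encodes pyruvate dehydrogenase kinase, lay at 5000 bp with 353.9, and the first peak outside, in shep, an RNA-binding protein gene, lay at 5002 bp with 292.5.

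Members lay mostly in the first introns. Of the 792 members (85.2%) that fell in an intron of the canonical transcript, 447 (56.4%) were in intron 1, 203 (25.6%) in intron 2, 69 (8.71%) in intron 3 and 73 (9.22%) in a later one. The rule itself favours early introns, since it asks for a TSS nearby: intron 1 made up 41.4% of the intron bases the rule allows, and introns 4 or later 21.9%. Deep intronic peaks showed the same order against their bases, with 269 of 728 (37.0%) in intron 1, which made up 20.6% of the deep intron bases. These shares are descriptions, and no test was made of them.

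**Figure D2:**
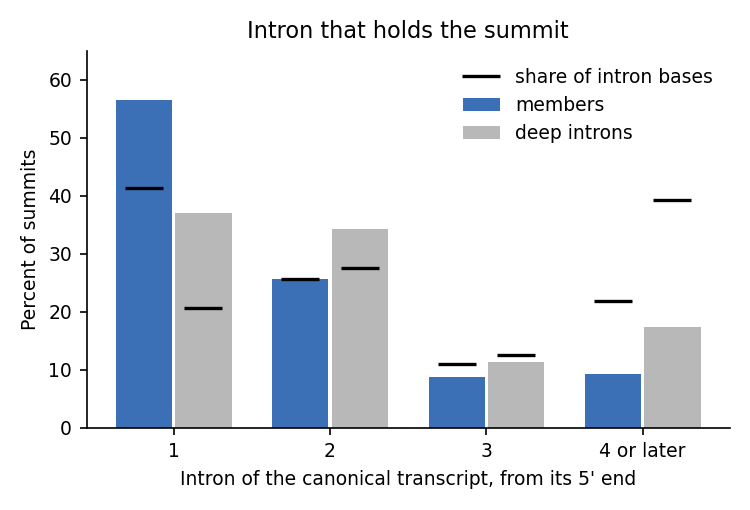
Percent of summits (y axis) in intron 1, 2, 3 and 4 or later of the canonical transcript (x axis), blue for 792 members and grey for 728 deep intronic peaks; black dashes give the share of the intron bases allowed by each rule. Intron 1 holds 56.4% of members against 41.4% of bases, and introns 4 or later hold 9.22% against 21.9%.

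The introns that held members had a median length of 8110.5 bp, with quartiles of 4170 and 17550 bp. Members lay a median of 2427.5 bp from the 5′ splice site and 4649.5 bp from the 3′ splice site, and 32 (4.04%) lay within 200 bp of an exon of the canonical transcript. Nearer to the 5′ than to the 3′ splice site were 479 of 792 (60.5%), as were 55.0% of the allowed bases. Most members had the nearest TSS in their own host: 772 of 930 (83.0%), of which 577 lay downstream of that TSS and 195 upstream of it, between alternative starts. For 158 (17.0%) the nearest TSS belonged to another gene, and 39 lay in more than 1 host gene.

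The members were spread unevenly over the chromosome arms. Arm 2R held 59.5 per Mb of allowed intron (206 members), X 54.3 (202), 3L 53.7 (196), 3R 45.9 (187) and 2L 41.4 (137). The small chromosome 4 held 2 members, or 8.46 per Mb. Members also lay near each other: 187 (20.1%) had another member within 1 kb and 413 (44.4%) within 5 kb. Summit windows of 101 bp had a median G and C content of 36.6%, against 40.6% in the windows 500 bp to the right, and were the poorer of the pair in 538 members (57.8%). Deep intronic summits had 34.7% and their flanks 41.6%.

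The share of strong peaks among members did not pass a test against any other class. Of the 930 members, 233 (25.1%) were among the 1202 strongest of the 4809 peaks, against 179 deep intronic peaks (22.6%), 170 peaks outside genes (22.02%) and 608 peaks within 1 kb of a TSS (27.2%). The ratios of the member share to these were 1.11, 1.14 and 0.922, and none passed the two-sided Fisher's exact test over the 3 comparisons (adjusted p = 0.257 for each). The median signal value was 206.7 in members, 199.1 in deep introns, 195.6 outside genes and 202.1 at TSSs. A p that misses the threshold does not show that the classes are equally strong.

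Most members were found in each replicate list. The thresholded list was made from the replicate and pooled lists, so this is partly built in and is not independent replication. With summits matched within 200 bp, 780 members (83.9%) had a counterpart among the 4809 strongest entries of replicate 1 and 724 (77.8%) among those of replicate 2. In both lists were 593 (63.8%), in replicate 1 alone 187, in replicate 2 alone 131, and 19 were in neither. The share in both was 63.0% for deep introns, a ratio of 1.01 (Fisher's exact test, adjusted p = 0.763). It was 58.8% outside genes (ratio 1.08, Fisher's exact test adjusted p = 0.121) and 65.3% at TSSs (ratio 0.976, adjusted p = 0.621), so no difference passed the test.

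Over the full replicate lists of 30000 entries each, 908 members (97.6%) had an entry with its summit within 200 bp in both. This share too is partly built in by the making of the thresholded list. The median signal value of members was 118.6 in replicate 1 and 94.0 in replicate 2, and 632 of the 908 (69.6%) were higher in replicate 1. Across these members the Spearman rank correlation of the replicate signals was 0.471 and Pearson's r on the log10 scale was 0.569, given as a description over peaks that share 2 libraries.

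**Figure D3:**
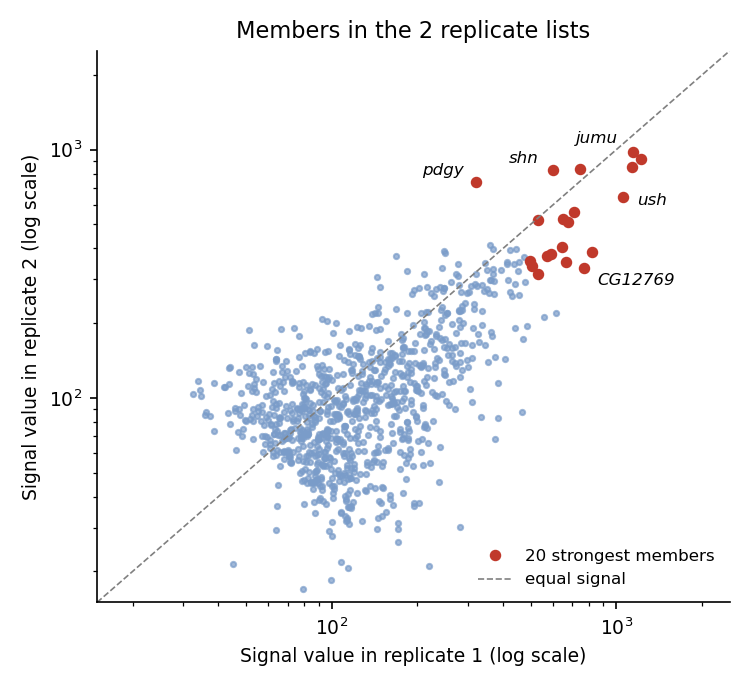
Signal value of each member in replicate 1 (x axis, log scale) and replicate 2 (y axis, log scale) for the 908 members with a summit within 200 bp in both lists. Red points are the 20 strongest members of the thresholded list and the dashed line marks equal signal. Of the red points 17 of 20 lie below the line, and pdgy lies farthest above it, with 322.5 in replicate 1 and 743.1 in replicate 2.

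Of the 20 strongest members, 5 lay in genes known by number, and the others in genes of varied function. After CG11050, whose signal was 1218 in replicate 1 and 918.9 in replicate 2, came jumu with a signal value of 2123 at rank 12. The jumu member lay 1869 bp downstream of the TSS in intron 1 and had 1142 in replicate 1 and 980.5 in replicate 2, rank 11 in both lists. CG32772 followed with 1898 at rank 15. A member in ush, which encodes a zinc finger cofactor of GATA factors, had 1701 at rank 25, with 1054 in replicate 1 and 644.4 in replicate 2. Its nearest TSS, 1401 bp away, was that of cbt, a zinc finger factor gene, and not one of ush. CG11357 had 1575, with 745.5 and 833.8 in the replicates. The strongest of the members in shn, a zinc finger factor of Dpp signalling, had 1410 at rank 40, with 599.7 in replicate 1 and 830.3 in replicate 2.

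Both replicates ranked these first members among their strongest entries. Regulators of RNA and translation among the 20 strongest were pum, an RNA-binding repressor, with 1211 (818.1 in replicate 1, 386.3 in replicate 2), and brat, a translational repressor, with 1061 (532.5 and 521.9). Signalling genes were Egfr, the epidermal growth factor receptor, with 1053 (642.0 and 406.0), neur, an E3 ubiquitin ligase of Notch signalling, with 987.1 (588.1 and 378.1), and for, a cGMP-dependent protein kinase, with 852.4 (498.7 and 355.4). The junction scaffold gene pyd had 1237 (711.3 and 562.3), 4524 bp from its TSS.

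Genes of hormones and metabolism were also among the 20 strongest. The insulin-pathway transcription factor gene foxo had 1187 (647.6 in replicate 1 and 525.8 in replicate 2), rank 69 in both lists. The acyl-CoA synthetase gene pdgy had 1072, with 322.5 in replicate 1 (rank 406) and 743.1 in replicate 2 (rank 32). ImpL2, a secreted insulin-binding protein, had 855.4, and its nearest TSS was that of CG46460. The lipophorin receptor gene LpR2 had 941.0, and the nuclear receptor gene Eip78C had 849.0, 4141 bp from the TSS of CG43218. Trl, which encodes the GAGA factor, had 1014, and the genes CG3726 and CG12769 had 1189 and 1110. In both replicates 18 of these 20 members ranked 200 or better, the exceptions being pdgy in replicate 1 and Eip78C in replicate 2 (rank 209). This too is partly built in by the choice on signal value. Of the 15 in an intron of the canonical transcript, 6 were in intron 1.

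At least 1 member was found in 595 of the 7011 protein-coding genes that have any base the rule allows, which is 8.49%. Replicate 1 gave 597 such host genes and replicate 2 gave 607, and 468 were the same (78.4% of the first and 77.1% of the second). Of the 595 hosts, 393 held 1 member, 122 held 2, and 80 held 3 or more. The share of hosts was larger among genes that offer more intron. Of genes with fewer than 1000 allowed bases, 14 of 3974 (0.352%) were hosts, against 146 of 1481 (9.86%) from 1000 to below 4000 bases, 229 of 1025 (22.3%) from 4000 to below 10000 bases and 206 of 531 (38.8%) with 10000 or more. Hosts had a median of 6302 allowed bases and all 7011 genes a median of 606.

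Many hosts also had a peak at their own promoter. A summit at most 1 kb from an own TSS was present in 326 of 595 hosts (54.8%) and in 1275 of 6416 other genes (19.9%). Among genes with at least 4000 allowed bases the shares were 258 of 435 (59.3%) and 260 of 1121 (23.2%). These shares were not tested, and the number of start sites per gene was not matched.

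The gene with the most members was shn, with 12 in the thresholded list and 11 in each replicate list, at signal values from 134.1 to 1410. The 12 lay in introns 1 and 2, each nearest to a TSS of shn itself. A pair of them, 11196881 and 11197123 on 2R, stood close to each other. The first had rank 644 in replicate 2 and no summit within 200 bp in replicate 1. The second had rank 795 in replicate 1 and no summit within 200 bp in replicate 2. A replicate peak with its summit farther off may still cover either position. CG1677 followed with 10 members (11 in replicate 1 and 7 in replicate 2), at 128.7 to 362.7. All 10 were nearest to a TSS of another gene, 4 of them to unc-119 and some of the others to brk, the repressor of Dpp targets. The host and the nearest promoter therefore differ there. Tlk, which encodes Tousled-like kinase, held 9 in the thresholded list and in each replicate list. The allowed intron was 30.3 kb in shn, 50.7 kb in CG1677 and 28.4 kb in Tlk, so these counts are not over equal lengths.

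The other hosts with the most members held 6 to 8 each, in 12.6 to 20.5 kb of allowed intron. The BTB factor gene psq held 8 (8 in replicate 1 and 11 in replicate 2), and Egfr held 7 (6 and 7). The chromatin protein gene tou held 7 (8 and 6), and mam, the Notch coactivator, held 7 (6 and 9). The remaining 3 held 6 each: tna, which encodes a zinc finger protein (6 and 5), vri, a bZIP repressor of the circadian clock (6 and 6), and CHES-1-like, a forkhead factor gene (6 and 6). In mam 3 of the members, and in Egfr 4, were nearest to a TSS of another gene.

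**Figure D4:**
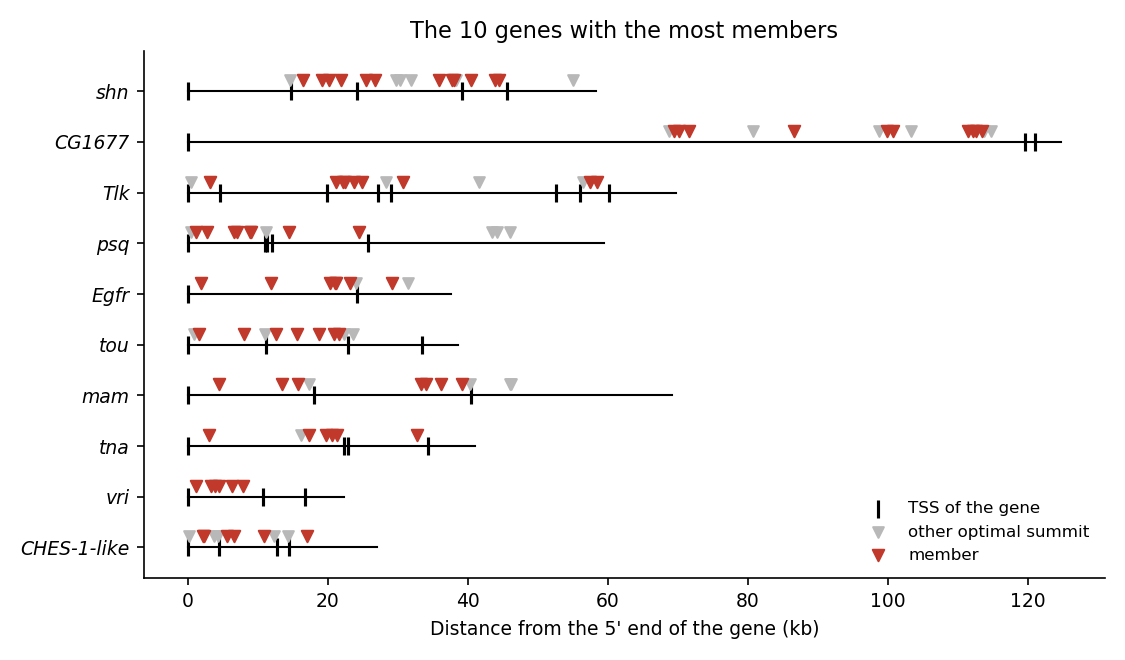
Position of each member (red), other summits of the thresholded list (grey) and start sites (black ticks) along the 10 genes with the most members, in kb from the 5′ end of the gene (x axis). The 12 members of shn stand in a stretch in the inner part of the gene, and no member of CG1677 has one of its own start sites as the nearest TSS.

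The gene lists by pathway or cell type are described by their counts beside the background of 8.49% of genes and 49.99 members per Mb of allowed intron. A gene's members are counted in every gene whose intron holds them. Most lists had longer introns than the background, with medians from 801 to 9119.5 allowed bases against 606, so the density per Mb is the fairer of the measures. Lists and members were chosen with earlier results known, genes near each other share peaks, and no list was tested.

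Signalling lists stood above the background on both measures. Dpp, Wingless and Hedgehog signalling had a member in 13 of 28 genes (46.4%), at 171 members per Mb (181 in replicate 1 and 171 in replicate 2). Its 34 members included 12 in shn alone. After shn, its strongest were in fz2, a Wingless receptor, with a signal value of 542.7 (317.0 in replicate 1, 239.9 in replicate 2), and in the glypican gene dlp with 518.0 (282.9 and 223.4). Of Notch and EGFR signalling, 9 of 28 genes (32.1%) held members, at 157 per Mb (150 and 164), and Egfr alone held 7 of the 23 members. After Egfr and neur came edl, a regulator of ETS factors, with 716.4 (394.3 and 326.5). The list of JNK and stress signalling had 5 of 16 genes (31.2%) at 114 per Mb, with 114 in replicate 1 and 75.8 in replicate 2. Its strongest were the receptor tyrosine kinase gene Pvr with 481.7 (281.6 and 193.1), the kinase gene msn with 290.1 and the adaptor gene Traf4 with 255.2.

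Insulin and TOR signalling had members in 7 of 19 genes (36.8%), at 178 per Mb (164 in replicate 1 and 191 in replicate 2). Besides foxo these were strongest in the kinase genes Lk6 with 585.2 (245.0 and 332.4) and Sik3 with 565.1 (279.9 and 285.2). The list of lipid and mitochondrial metabolism had 8 of 22 genes (36.4%) and the highest density of the 15 lists described, 239 per Mb in the thresholded list. In replicate 1 it had 179 per Mb, below the 181 of Dpp, Wingless and Hedgehog signalling, and in replicate 2 it had 199. The strongest members in this list were in whd, the carnitine palmitoyltransferase gene, with 484.2 (202.2 and 277.1), the perilipin gene Lsd-2 with 462.4 (245.9 and 270.4) and the acyl-CoA synthetase gene Acsl with 383.3 (145.9 and 233.0). All 3 were higher in replicate 2, unlike most members. The density of this list rests on 12 members in 0.0502 Mb.

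Hormone and chromatin lists were also dense. Of the ecdysone response genes, which the steroid hormone of metamorphosis regulates, 11 of 22 (50%) held members, at 112 per Mb (134 in replicate 1 and 117 in replicate 2). The strongest were ImpL2, Eip78C and vri, whose strongest member had 765.5 (555.8 and 210.7). Chromatin and BTB factors had 13 of 32 genes (40.6%) at 161 per Mb (157 and 182). After jumu and Trl came Tet, the homologue of the DNA-modifying TET enzymes, with 635.0 (470.0 and 173.2).

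Lists of eye genes were less dense than the signalling lists, and those of retinal specification and phototransduction lay below the background per Mb in both replicates. Retinal specification had members in 3 of 24 genes (12.5%), at 20.6 per Mb, with 13.8 in replicate 1 and 27.5 in replicate 2. These were hth, a homeodomain gene, with 501.5 (289.1 and 200.4), gl, and so, a homeodomain gene of eye determination, with 157.9. The so member had rank 1810 in replicate 2 but 7439 in replicate 1, outside its strongest 4809. Phototransduction and the rhabdomere had 2 of 29 genes (6.90%) at 39.7 per Mb (33.1 and 46.4). They were norpA, the phospholipase C of the light response, with 609.6 (323.6 and 282.3), and sdt, a scaffold of the Crumbs complex, whose strongest of 5 members had 256.8 (135.4 and 116.9). Lens, cone and pigment cells had 4 of 16 genes (25%) at 58.5 per Mb, above the background in replicate 1 (58.5) and below it in replicate 2 (47.9), with the adhesion genes kirre at 391.9, cno at 277.7 and Cad87A at 235.9.

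The gl gene itself held 1 member. It lay at 18371512 on 3R, in intron 2 of gl (FBgn0004618), 1226 bp downstream of the TSS. Its signal value was 267.5 at rank 1537, with 144.2 in replicate 1 (rank 1812) and 116.4 in replicate 2 (rank 1604). The gene offers 766 bases that the rule allows.

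Among lists of other cell types the counts were small. Cell adhesion and axon guidance had 6 of 33 genes (18.2%) at 30.9 per Mb (34.8 in each replicate), led by the integrin genes mew with 329.1 (167.5 and 148.7) and mys with 308.2 (209.8 and 93.4), and by sli, the ligand of Robo receptors, with 290.6 (192.8 and 87.7). Glia had 3 of 14 genes (21.4%) at 79.6 per Mb in both replicates, led by the ETS factor gene pnt with 336.8 (147.2 and 188.6) before sli and the G-protein regulator gene loco with 278.2.

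Neurons had 1 of 19 genes (5.26%), the acetylcholine synthesis gene ChAT, with 181.6 (90.9 and 88.6), and 7.99 members per Mb. Muscle had 2 of 20 (10%) at 40.8 per Mb (32.6 in each replicate). The strongest member in Mef2, the muscle transcription factor gene, had 315.4, with rank 836 in replicate 1 and no summit within 200 bp in replicate 2. The one in sals, a sarcomere gene, had 139.9. Fat body and blood cells had 2 of 11 (18.2%) at 70.4 per Mb, with 117 in replicate 1 and 46.9 in replicate 2: ush, and the GATA factor gene srp with 156.0.

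**Figure D5:**
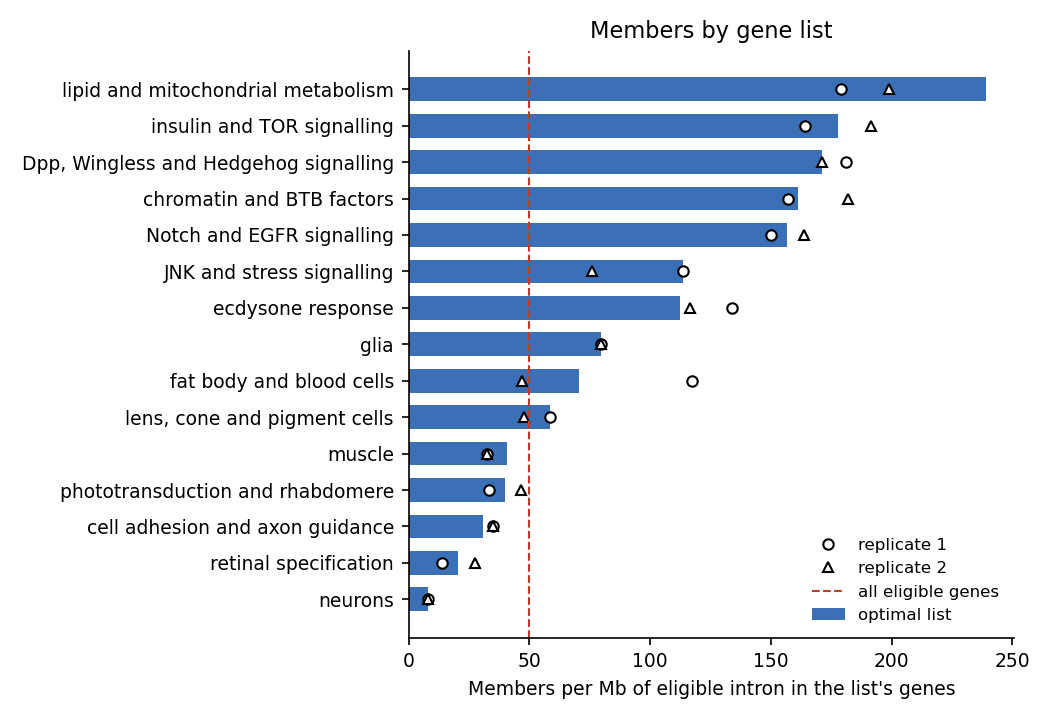
Members per Mb of allowed intron (x axis) for 15 gene lists (y axis); bars are the thresholded list, circles replicate 1, triangles replicate 2, and the dashed line marks all eligible genes at 49.99 per Mb. Lipid and mitochondrial metabolism stands highest at 239 per Mb and neurons lowest at 7.99.

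Of 2080 6-mers, with both strands joined, 2 (0.0962%) were called more frequent within 50 bp of member summits than in the same windows 500 bp to the right. A call needed an adjusted p under 0.05 by the exact McNemar test and a fold of at least 1.5. AACAAA, shown above in jumu, CG32772 and CG11357, was in 269 summit windows (28.9%) and 166 flanks (17.8%), a fold of 1.62 (exact McNemar test, adjusted p = 1.95e-05). In replicate 1 the fold was 1.42 and in replicate 2 it was 1.46, and both are under the fold of a call. AGTGCA, shown above in CG6330, crol and Kdm2, was in 110 windows (11.8%) and 59 flanks (6.34%), a fold of 1.86 (exact McNemar test, adjusted p = 0.0210). Its fold was 1.62 in replicate 1 and 2.10 in replicate 2. Both calls were lost against the windows to the left, where AACAAA had a fold of 1.29 (exact McNemar test, adjusted p = 0.0934) and AGTGCA one of 1.67 (exact McNemar test, adjusted p = 0.0612). Both were also lost with an upper bound of 3000 bp and among the 2404 strongest peaks. Of the right flanks 5.70% touched an exon, against 0.968% of the summit windows. With exon-free flanks, AACAAA kept a fold of 1.62 (exact McNemar test, adjusted p = 5.57e-05), while AGTGCA had 1.68 and lost its call (exact McNemar test, adjusted p = 0.196). The part of the lower G and C content at summits in these calls was not tested. These tests count members as independent pairs, though 187 of 930 had another member within 1 kb. The flank of a member can therefore fall at a neighbouring peak.

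A-rich 6-mers close to AACAAA passed the adjusted p but not the fold: ACAAAA at 1.45 and AAAAAA at 1.40 (exact McNemar test, adjusted p = 0.0126 for each). CCGGAA was rarer at summits, with 6 windows against 30 flanks (exact McNemar test, adjusted p = 0.0290). Members with AACAAA had a median signal value of 219.6 and those without it 201.6. The occurrence nearest to the summit lay a median of 17.5 bp away for AACAAA and 27.5 bp for AGTGCA.

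Neither called 6-mer differed by test between members and deep intronic peaks (Fisher's exact test, adjusted p = 1 for each). AACAAA was in 28.3% of the deep intronic summits and AGTGCA in 9.48%. Between members and deep intronic peaks 0 of 2080 6-mers (0%) were called by Fisher's exact test, with 86 at an unadjusted p under 0.05.

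None of 7 motifs looked up for known factors was called at the member summits of the thresholded list. GAGAGA, the letters of the GAGA factor, was in 73 summit windows (7.85%), 41 right flanks and 51 left flanks (fold against the right 1.78, exact McNemar test, adjusted p = 0.168). AGATAA, of GATA factors, was in 67, 66 and 56, and TAATTA, of homeodomain factors, in 59, 67 and 61. TGACTC, of AP-1, was in 36, 28 and 31, TATCGA, of DREF, in 32, 35 and 27, CAGGTA, of Zelda, in 15, 12 and 21, and the E-box CACGTG in 9, 10 and 10. The replicates differed for some of them, in counts given without a test. GAGAGA was in 60 summit windows and 44 right flanks in replicate 1, and in 83 and 38 in replicate 2. TAATTA was in 70 and 69 in replicate 1, and in 41 and 68 in replicate 2. A missing match says only that these letters are not in these windows.

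Members with the 8-mer CAAAGTCC mostly ranked better in replicate 2. Of all 94 summits of the thresholded list with it, 21 (22.3%) were members, which make up 19.3% of that list. The 8-mer was at 2.26% of the member summits, 1.95% of all summits and 1.01% (8 summits) of the deep intronic ones. Of the 21, 20 ranked better in replicate 2 than in replicate 1, against 455 of 930 members (48.9%). The replicate 1 list had it at 7 member summits and 2 right flanks, and the replicate 2 list at 25 and 2. The nearest copy lay a median of 20.5 bp from the summit, and within 25 bp for 16 of the 21. The strongest carrier was in whd with 484.2, rank 1039 in replicate 1 and 291 in replicate 2. Others, picked by no rule, were in zip, the myosin II heavy chain gene, Pepck2, a gluconeogenesis gene, and Mct1, a monocarboxylate transporter gene. Another was in FER, a tyrosine kinase gene, whose member had no summit within 200 bp in replicate 1. Why the replicates differ at these peaks was not tested.

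Few members had a non-coding start site nearby. A TSS of a non-coding gene lay within 1 kb of 44 members (4.73%), of which 40 were of ncRNA genes and 4 of tRNA genes. For deep intronic peaks it was 37 (4.68%), a ratio of 1.01 (Fisher's exact test, p = 1). The strongest such member, in LpR2, lay 153 bp from the start of lncRNA:CR46102, and the next, in Tlk with a signal value of 775.9 (358.4 in replicate 1 and 411.4 in replicate 2), lay 961 bp from a non-coding start. Members in Zw, the glucose-6-phosphate dehydrogenase gene, and in CHES-1-like lay 859 bp from asRNA:CR44512 and 749 bp from lncRNA:CR43287, with 764.8 and 711.4. Another in Tlk, with 476.9, lay 13 bp from one. A non-coding exon held the summit of 23 members, and an annotated transposable element held that of 1.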

How the data were processed

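ChIP-seq peak lists of 2 biological replicates of 1 group were used on dm6, per the labels. Per the text files deposited with the samples, each replicate list came from that replicate and a control shared by both, and the thresholded list from the replicate and pooled lists by the irreproducible discovery rate. The authors deposited a signal value and a −log10 q value for each peak. The p-value column held no values and was not used. The aligner and peak caller are not given in the sources used here.

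The members and gene lists were chosen with earlier results of these data known. TSSs and exons of 13945 protein-coding genes came from Ensembl release 115, and sequence from NCBI RefSeq's copy of the same assembly. Of 415 listed symbols, 13 were renamed to the annotation and 7 were not matched. The sources do not tie the replicates to separate animals beyond calling them biological.

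Densities were compared by an exact binomial test, shares by Fisher's exact test with Benjamini-Hochberg adjustment over 3 classes, and 6-mers by an exact McNemar test adjusted over 2080, all two-sided, in Python 3.11.15 with scipy 1.17.1. The 6-mer tests were tried on windows with planted 6-mers, and the density and share tests only on set counts with a known answer. Genes were named by a rule: the 20 strongest members, the 10 hosts with the most members, up to 3 genes of each of 16 lists (1 of them is not reported here), up to 10 called 6-mers, the 5 strongest members near a non-coding TSS, those at the bounds, and gl. Alternatives were other bounds, windows, flanks, matching distances and list cuts, exons of all genes, and each replicate alone.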

Additional observations from a re-analysis of the deposited data

Results flagged for a closer look

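Outside the thresholded list, 273 intronic entries of the pooled list in the territory of the members, out of 4600 such entries, had the same highest −log10 q value as the members. They drew attention because they are a signal in data that no comparison above used. Their median signal value was 115.8 and the highest was 126.9, below the weakest member at 127.2.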

How the results depend on the processing

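The density ratio of members to deep introns ran from 1.72 with a lower bound of 2000 bp to 2.35 with an upper bound of 10000 bp, past the threshold in every alternative run, and was 1.84 and 1.99 with a replicate left out. The count of members was 545 with a lower bound of 2000 bp and 481 among the 2404 strongest peaks, and host genes were 363 and 362. The share found in both replicates turned, without passing the test, to ratios of 0.947 (upper bound of 10000 bp) and 0.979 (strongest 2404), and the share near a non-coding TSS to 0.721 (strongest 2404) and 0.713 (exons of all genes). The count of called 6-mers moved most: 4 with a lower bound of 500 bp, 0 with an upper bound of 3000 bp, 10 with one of 10000 bp, 1 among the strongest 2404, 10 to 40 with 1 replicate left out, 0 with the left flank, 20 with a flank at 1000 bp, 16 with windows of 100 bp and 4 at any fold. With exon-free flanks, chosen after seeing the data, it was 1 over 877 members. For these changes the cause was not tested. The adjusted p of AACAAA stayed under 0.05 in 9 of 12 alternatives, with folds of 1.28 to 1.84 over all 12, and rose to 0.109 (upper bound of 3000 bp), 0.214 (strongest 2404) and 0.0934 (left flank) by the exact McNemar test. That of AGTGCA stayed under it in 6 of 12, with folds of 1.53 to 2.10, and by the same exact test rose to 0.0635 and 0.503 (lower bounds of 500 and 2000 bp), 0.154 (upper bound of 3000 bp), 0.464 (strongest 2404), 0.0612 (left flank) and 0.196 (exon-free flanks). A call also needs a fold of at least 1.5. AACAAA missed that fold with replicate 1 left out (1.46) and with replicate 2 left out (1.42). It also missed it with the flank at 1000 bp (1.45) and with windows of 100 bp (1.28), so its call was lost there too. The single 6-mer called among the strongest 2404 was neither AACAAA nor AGTGCA. Of the counts, shares and the density ratio, 56 other values stayed within 1.5 times the count or on the same side of the test.

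No paired analysis was possible because there is 1 group only. With 2 replicates and unknown depth, peaks just under the threshold of the list cannot be told apart from those just over it, and no value covers read counting.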
